A study of Mus musculus with 9 samples.

Results

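Mitosis, spindle and kinetochore genes encode the proteins with which a cell enters mitosis, builds the spindle, attaches chromosomes to it, separates them and divides. A set of 60 such genes was listed by function, with earlier results of these data known. Counts of its members beside those of all genes are therefore descriptions. Each gene was represented by its brightest probe set over all 9 arrays among probe sets annotated to 1 gene. This gave values for 58 of the 60 genes, out of 19938 genes measured. Kifc1 was found only on a probe set that also names its close relative Kifc5b, and it was left out. Ccnb1 is not analysed here. The member listed as Sgol1 is Sgo1 in the RefSeq gene table and is called Sgo1 below.

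The arrays hold RNA from CD4-enriched spleen T cells of C57BL/6J mice, cultured for 72 h with beads coated with anti-CD28 and anti-CD3. The beads engage the T cell receptor complex together with the costimulatory receptor CD28, and T cells stimulated in this way enter the cell cycle. The study compared 3 groups of 3 arrays: CD69-activated, CD69-/- and WT. CD69-activated cells were wild-type cells that received anti-CD69 at 24 h of culture and, at 48 h, a secondary antibody that cross-links it, each diluted 1 to 200. CD69-/- cells came from mice deficient in CD69, a lectin-like receptor that appears on lymphocytes soon after stimulation, and WT cells were wild-type cells with the beads and no anti-CD69. The labels describe no culture with an isotype control or the secondary antibody alone, so the antibodies' presence and the cross-linking of CD69 cannot be told apart. They do not say whether each array came from its own mouse, and p-values therefore measure the spread between these samples. All levels below are log2 values on the RMA scale, a log2 fold change is a difference of 2 group means on that scale, and n is 3 arrays per group throughout.

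Cd69 was lowest in CD69-/- arrays, as the labels require. Its log2 level was 11.80, 11.84 and 11.74 in CD69-activated arrays, 9.65, 9.49 and 9.63 in CD69-/- arrays, and 12.03, 12.12 and 12.37 in WT arrays. The sources used here do not say whether its probes fall within the deletion. The CD69-/- arrays also differed from the others in sex-linked genes. Xist, the RNA that silences an X chromosome in female cells, averaged 12.95 in CD69-activated, 6.01 in CD69-/- and 12.59 in WT arrays, and the Y-linked gene Eif2s3y averaged 4.35 in CD69-activated, 9.78 in CD69-/- and 4.33 in WT arrays. Sex and genotype thus cannot be told apart in any comparison that involves CD69-/- cells, while CD69-activated and WT arrays had the same pattern. Across genes, arrays of 1 group correlated at 0.998 to 0.999 and arrays of different groups at 0.991 to 0.997. The median log2 level over all probe sets was 7.52 to 7.56 in CD69-activated arrays, 7.40 to 7.43 in CD69-/- arrays and 7.43 to 7.47 in WT arrays.

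Entry into mitosis is driven by CDK1 bound to cyclins A and B, and polo-like and Aurora kinases act beside it. The spindle checkpoint holds the cell until the kinetochores, protein assemblies on the centromeres, are attached to spindle microtubules, and then a ubiquitin ligase, the anaphase-promoting complex (APC/C), releases the chromosomes and destroys the cyclins. Transcripts of most of these genes are made late in the cell cycle and are low in resting lymphocytes, so their summed level in a cell population is widely read as a mark of division. Their promoters are known targets of the MuvB complexes, which bind a short element called the cell cycle genes homology region (CHR, with the core TTTGAA), and of NF-Y, which binds CCAAT.

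The promoters of the 4 genes that fell furthest in CD69-activated cells, among those whose window holds the CHR-type motif, are shown here because the motif is frequent in the set. They are RefSeq windows on GRCm38.p6 that run 250 bases before to 50 bases after the transcription start, written 5′ to 3′ on the gene's strand. Capitals mark TTTGAA or its reverse complement TTCAAA, and CCAAT or its reverse complement ATTGG. Kif11 lies at chr19:37376132-37376431 on the plus strand, Top2a at chr11:99024140-99024439, Hmmr at chr11:40733388-40733687 and Cdk1 at chr10:69352863-69353162, the last 3 on the minus strand.
Kif11: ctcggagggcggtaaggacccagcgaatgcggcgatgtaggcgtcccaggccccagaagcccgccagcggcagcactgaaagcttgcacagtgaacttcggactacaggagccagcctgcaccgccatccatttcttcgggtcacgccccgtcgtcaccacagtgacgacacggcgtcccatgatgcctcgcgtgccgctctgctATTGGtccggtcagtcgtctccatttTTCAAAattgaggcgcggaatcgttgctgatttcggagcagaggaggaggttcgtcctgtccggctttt
Top2a: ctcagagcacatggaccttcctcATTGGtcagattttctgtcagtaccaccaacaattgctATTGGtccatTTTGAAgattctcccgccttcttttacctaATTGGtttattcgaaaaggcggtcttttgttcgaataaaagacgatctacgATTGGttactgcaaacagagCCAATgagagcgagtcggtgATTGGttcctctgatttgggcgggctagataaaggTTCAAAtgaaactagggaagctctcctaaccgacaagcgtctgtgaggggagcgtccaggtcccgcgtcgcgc
Hmmr: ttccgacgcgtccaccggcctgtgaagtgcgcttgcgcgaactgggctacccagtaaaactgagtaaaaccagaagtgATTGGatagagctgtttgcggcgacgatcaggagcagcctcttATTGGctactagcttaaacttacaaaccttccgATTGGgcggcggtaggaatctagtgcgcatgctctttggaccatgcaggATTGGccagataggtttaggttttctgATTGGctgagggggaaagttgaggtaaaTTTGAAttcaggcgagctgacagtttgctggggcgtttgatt
Cdk1: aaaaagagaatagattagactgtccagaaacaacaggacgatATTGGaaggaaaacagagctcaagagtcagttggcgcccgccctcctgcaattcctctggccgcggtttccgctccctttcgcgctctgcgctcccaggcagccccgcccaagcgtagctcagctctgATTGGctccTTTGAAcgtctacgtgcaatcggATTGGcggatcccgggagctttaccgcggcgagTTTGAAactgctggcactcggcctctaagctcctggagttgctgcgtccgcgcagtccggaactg
The CHR-type motif began at -19 in Kif11, at -179 and -23 in Top2a, at 8 in Hmmr, and at -71 and -15 in Cdk1, counted from the transcription start. Kif11 held 1 CCAAT motif, Top2a 6, Hmmr 5 and Cdk1 3.

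Of the 58 members, 49 were matched to RefSeq promoters with 53 windows, and Aurkb, Ccna2, Cdc25c, Dlgap5, Foxm1, Incenp, Kif20a, Smc4 and Tpx2 were not searched. TTTGAA, searched on both strands, was found in 35 of the 49 members (71.4%), against 2687 of all 15562 genes tested with a window (17.3%). By window, 37 of 53 held it (69.8%), against 14.8% of 19115 windows. It lay within 50 bases of the start in 32 member windows (60.4%), against 3.78% of all windows. CCAAT on either strand was found in 75.5% of member windows and 37.4% of all windows, and at least 2 copies in 43.4% of member windows and 12.4% of all windows. The 2 motifs overlapped in 1 member window. The share of windows with a CHR-type motif was 20.8% for members and 2.13% for all genes in the 50 bases before the start, and 39.6% for members and 1.73% for all genes in the 50 bases after it. Of the 3 members with more than 1 window, Ect2 and Prc1 have windows that overlap. A match is a description of the letters, not of a bound site.

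**Figure D1:**
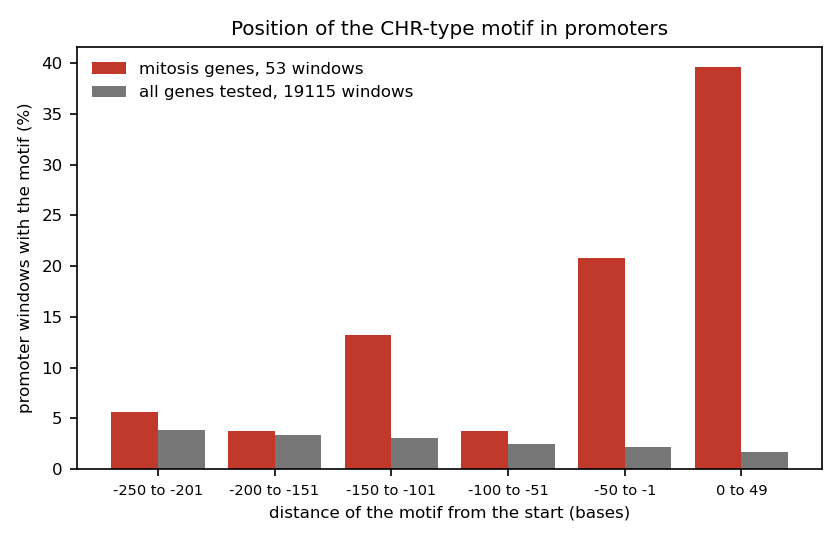
Share of RefSeq promoter windows (%) in which the CHR-type motif begins, in 50-base bins from the transcription start, for 53 windows of mitosis genes and 19115 windows of all genes tested. The bars of the mitosis genes reach 20.8% just before and 39.6% just after the start, where all genes stand at 2.13% and 1.73%.

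Transcripts of the mitosis genes were lower in CD69-activated than in WT cells across every role. Of 58 members, 53 fell, 1 rose and 4 did not pass the test (limma, adjusted p under 0.05, Benjamini-Hochberg over 19938 genes), where 13.7% of all genes fell and 10.1% rose. The median log2 fold change of the members was -0.69, beside 0.017 for all genes. At least 1.5-fold falls were called in 35 members, beside 1.3% of all genes, and at least 2-fold falls in 9 members, beside 0.276% of all genes. The 9 were Nusap1, Kif11, Top2a, Bub1, Ccna2, Tpx2, Kif20a, Hmmr and Cdk1. They made up 16.4% of the 55 genes of the whole table that fell at least 2-fold and 15.5% of the members. In 54 members all CD69-activated arrays lay below all WT arrays and in 1 above them, beside 17.9% and 18.1% of all genes.

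The fall was seen in each CD69-activated array. The median over members of the log2 level minus the gene's WT mean was -0.73, -0.66 and -0.65 in CD69-activated arrays, -0.043, 0.025 and 0.045 in CD69-/- arrays, and 0.018, 0.032 and -0.040 in WT arrays. The CD69-activated arrays thus stood apart from the other 6 arrays, which overlapped. Summed on the linear scale, the members had 22998 to 23635 units in CD69-activated arrays, 32625 to 34520 in CD69-/- arrays and 33023 to 34658 in WT arrays. WT mean levels ran from 6.69 for Cdc25c, at the 31.9th percentile of all genes, to 11.97 for Smc4, at the 97.4th. Across the 58 members, which all come from the same arrays, the correlation of the change with the WT level was 0.013 (Pearson r) and -0.085 (Spearman rho). In cultures of many cells, fewer dividing cells and less of these transcripts per cell cannot be told apart.

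**Figure D2:**
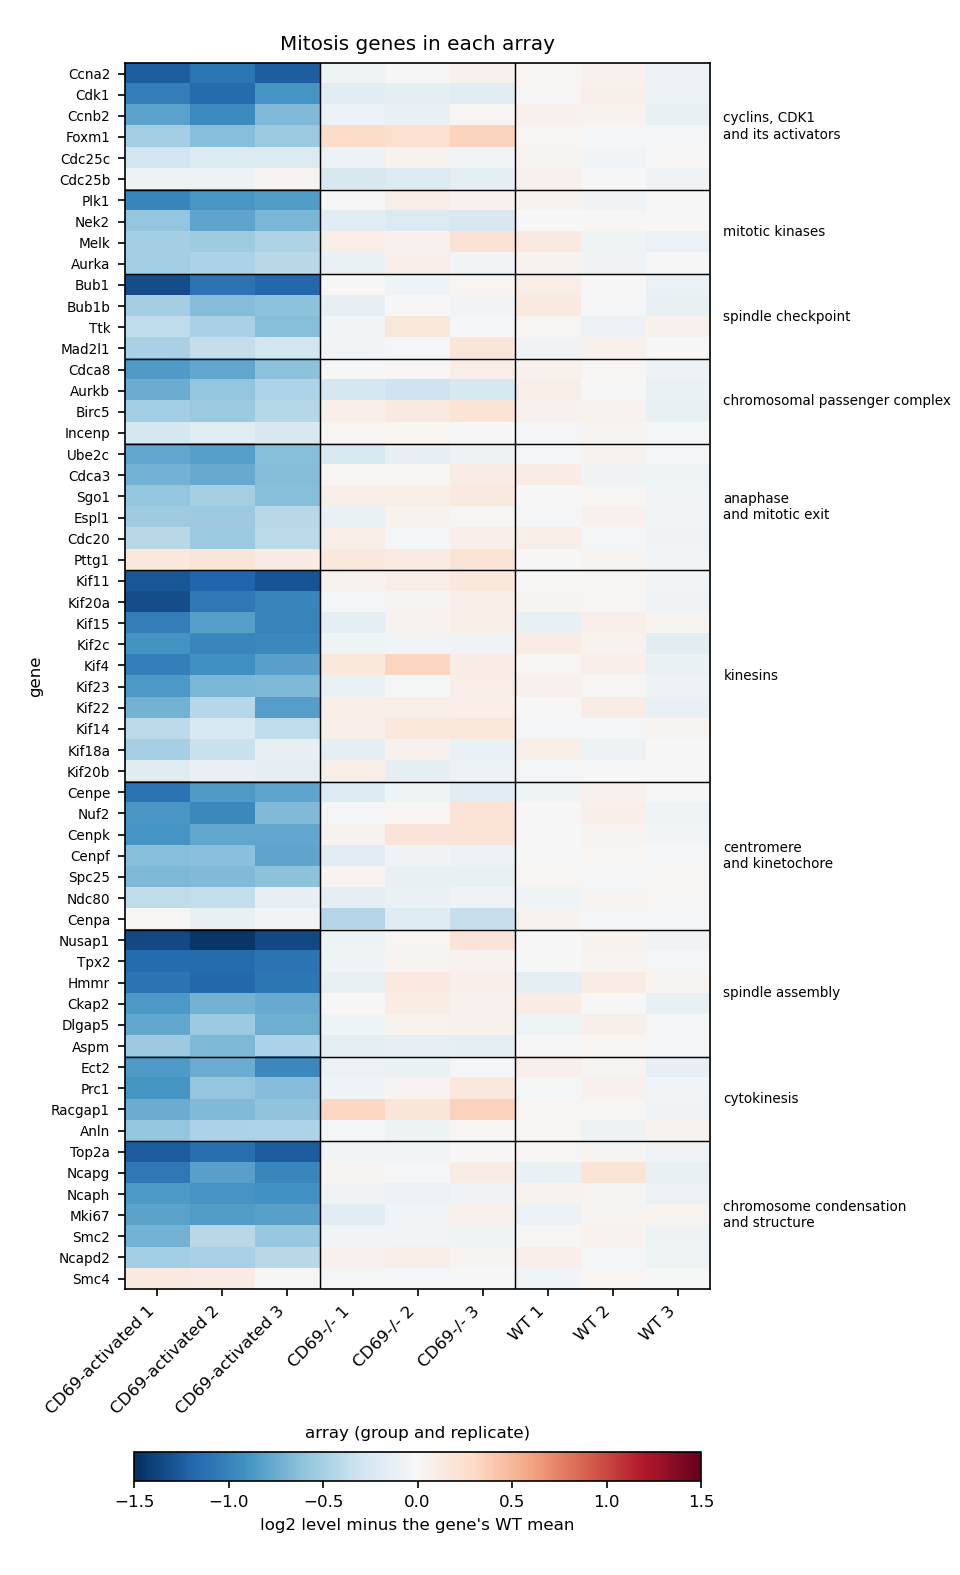
Log2 level of each of the 58 mitosis genes in each array minus the gene's WT mean (colour, -1.5 to 1.5), with genes in rows grouped by role and arrays in columns by group and replicate. The 3 CD69-activated columns are blue in nearly all rows, with array medians of -0.73 to -0.65, and the CD69-/- and WT columns are close to 0.

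Among the cyclins, CDK1 and their regulators, 5 of 6 members fell, with a median log2 fold change of -0.69. Ccna2, which encodes cyclin A2, had 9.22, 9.38 and 9.23 in CD69-activated arrays, 10.40, 10.46 and 10.52 in CD69-/- arrays, and 10.48, 10.53 and 10.37 in WT arrays. All 3 CD69-activated arrays lay well below all CD69-/- and WT arrays, and the fall against WT was 2.27-fold (log2 fold change -1.18, SE 0.057, limma adjusted p = 2.47e-07). Cdk1, the catalytic partner of the mitotic cyclins, had 8.47, 8.36 and 8.62 in CD69-activated arrays, 9.35, 9.37 and 9.34 in CD69-/- arrays, and 9.53, 9.58 and 9.42 in WT arrays. Its CD69-activated values were again the lowest, 2.04-fold below WT (log2 fold change -1.03, SE 0.063, adjusted p = 1.41e-06). Ccnb2, which encodes cyclin B2, fell by 0.80 on the log2 scale and Foxm1, a transcription factor for late cell cycle genes, by 0.57. The 2 Cdc25 phosphatases, which remove inhibitory phosphates from CDK1, changed less. Cdc25c fell by 0.24 (adjusted p = 0.00254). Cdc25b had 10.19, 10.19 and 10.31 in CD69-activated arrays, 10.02, 10.05 and 10.12 in CD69-/- arrays, and 10.33, 10.25 and 10.20 in WT arrays. Its CD69-activated and WT values overlapped, and the difference of -0.033 did not pass the test (SE 0.049, adjusted p = 0.676).

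All 4 mitotic kinases outside the checkpoint fell, with a median of -0.59. Plk1, polo-like kinase, which acts at centrosomes, kinetochores and the cleavage site, had 8.37, 8.49 and 8.53 in CD69-activated arrays, 9.36, 9.45 and 9.44 in CD69-/- arrays, and 9.42, 9.32 and 9.37 in WT arrays. The CD69-activated arrays did not overlap the others, and Plk1 was 1.87-fold below WT (log2 fold change -0.90, SE 0.049, adjusted p = 5.67e-07). Aurka, the Aurora kinase of the spindle poles, had 8.27, 8.31 and 8.37 in CD69-activated arrays, 8.69, 8.86 and 8.74 in CD69-/- arrays, and 8.84, 8.73 and 8.79 in WT arrays. This was the smallest fall of the 4, at 1.39-fold (log2 fold change -0.47, SE 0.051, adjusted p = 8.15e-05). Nek2, a kinase that helps to separate the centrosomes, fell by 0.69 and Melk, a kinase made in dividing cells, by 0.50.

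The 4 spindle checkpoint members all fell, with a median of -0.54. Bub1, a checkpoint kinase of the kinetochore, had 7.42, 7.64 and 7.57 in CD69-activated arrays, 8.75, 8.69 and 8.77 in CD69-/- arrays, and 8.85, 8.74 and 8.65 in WT arrays. The groups were separated by about 1 log2 unit, and Bub1 was 2.30-fold below WT (log2 fold change -1.20, SE 0.063, adjusted p = 4.45e-07). Mad2l1, which encodes the checkpoint protein MAD2 that holds the APC/C activator CDC20 inactive, had 10.01, 10.13 and 10.21 in CD69-activated arrays, 10.45, 10.47 and 10.67 in CD69-/- arrays, and 10.44, 10.55 and 10.49 in WT arrays. Its CD69-activated arrays also lay below all others, by less (log2 fold change -0.37, SE 0.068, adjusted p = 0.00224). Bub1b, which encodes BUBR1, fell by 0.59 and Ttk, the checkpoint kinase MPS1, by 0.50.

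The chromosomal passenger complex, which corrects wrong attachments and later marks the cleavage site, fell in all 4 subunits, with a median of -0.55. Cdca8, which encodes the subunit borealin, had 7.16, 7.22 and 7.39 in CD69-activated arrays, 8.01, 8.04 and 8.11 in CD69-/- arrays, and 8.07, 8.02 and 7.92 in WT arrays. It did not overlap with WT, and the fall was 1.68-fold (log2 fold change -0.75, SE 0.061, adjusted p = 1.12e-05). The scaffold subunit Incenp had 8.47, 8.56 and 8.49 in CD69-activated arrays, 8.76, 8.76 and 8.73 in CD69-/- arrays, and 8.71, 8.77 and 8.72 in WT arrays. Its fall was 1.17-fold, small beside the other subunits but larger than the spread between arrays (log2 fold change -0.23, SE 0.037, adjusted p = 0.00129). Aurkb, the complex's kinase, fell by 0.60 and Birc5, which encodes survivin, by 0.50.

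Of 6 members that act in anaphase and mitotic exit, 5 fell and 1 rose. Ube2c, the ubiquitin-conjugating enzyme of the APC/C, had 8.85, 8.80 and 8.98 in CD69-activated arrays, 9.40, 9.50 and 9.55 in CD69-/- arrays, and 9.60, 9.68 and 9.60 in WT arrays. CD69-activated arrays were the lowest, 1.68-fold below WT (log2 fold change -0.75, SE 0.056, adjusted p = 5.88e-06). Pttg1, which encodes securin, the inhibitor of separase, ran the other way. It had 9.67, 9.69 and 9.63 in CD69-activated arrays, 9.67, 9.63 and 9.71 in CD69-/- arrays, and 9.50, 9.55 and 9.47 in WT arrays. Both groups lay above all WT arrays and overlapped each other, and the rise in CD69-activated cells was 0.16 on the log2 scale (SE 0.038, adjusted p = 0.0127). With arrays centred on their medians this rise was 0.075 and no longer passed (adjusted p = 0.213). Espl1, which encodes separase itself, fell by 0.50, Cdc20, the activator of the APC/C, by 0.46, Sgo1, shugoshin, which protects centromeric cohesin, by 0.57, and Cdca3, a protein tied to mitotic entry, by 0.71.

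The mitotic kinesins, motor proteins that slide, shorten or move along spindle microtubules, fell in 9 of 10 members, with a median of -0.83. Kif11, which encodes the motor Eg5 that pushes the spindle poles apart, had 8.47, 8.56 and 8.45 in CD69-activated arrays, 9.81, 9.85 and 9.91 in CD69-/- arrays, and 9.77, 9.78 and 9.71 in WT arrays. Over 1 log2 unit lay between the CD69-activated arrays and all others, and the fall against WT was 2.38-fold (log2 fold change -1.25, SE 0.043, adjusted p = 3.02e-08). Kif20a, a motor of the central spindle, fell by 1.13, Kif15, which acts beside Kif11, by 0.96, the microtubule depolymerase Kif2c by 0.95, and Kif4, a chromosome-bound motor gene on the X chromosome, by 0.92. Kif23, a subunit of centralspindlin, fell by 0.74, and the chromosome-bound Kif22 by 0.65. Kif14, a motor of the midbody, fell by 0.33, and Kif18a, which dampens chromosome movement at the metaphase plate, by 0.32 (adjusted p = 0.0225). The Kif18a call held in 14 of the 18 alternative analyses and was lost without WT replicate 1 or 3 or CD69-activated replicate 1 or 2. Kif20b, a motor of cytokinesis, had 7.66, 7.73 and 7.69 in CD69-activated arrays, 7.94, 7.70 and 7.76 in CD69-/- arrays, and 7.82, 7.85 and 7.85 in WT arrays. The CD69-activated values lay below the WT values without overlap, but the difference of -0.14 did not pass the test over all genes (SE 0.055, adjusted p = 0.0806). It passed in 3 of the 18 alternatives, among them median centring of the arrays (-0.23, adjusted p = 0.0108).

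Of 7 centromere and kinetochore members, 6 fell, with a median of -0.68. Cenpe, a kinesin of the kinetochore that carries chromosomes to the metaphase plate, had 6.67, 6.93 and 6.99 in CD69-activated arrays, 7.57, 7.71 and 7.62 in CD69-/- arrays, and 7.71, 7.84 and 7.79 in WT arrays. Its CD69-activated arrays were the lowest, 1.88-fold below WT (log2 fold change -0.91, SE 0.075, adjusted p = 1.16e-05). Members of the microtubule-binding NDC80 complex fell by unequal amounts, with Nuf2 by 0.83, Spc25 by 0.65 and Ndc80 by 0.29 (adjusted p = 0.00842 for Ndc80). Cenpk, of the inner kinetochore, fell by 0.81, and Cenpf, of the outer kinetochore, by 0.68. Cenpa, the histone variant that marks centromeres, had 10.10, 9.98 and 10.05 in CD69-activated arrays, 9.66, 9.91 and 9.74 in CD69-/- arrays, and 10.14, 10.06 and 10.07 in WT arrays. CD69-activated and WT values of Cenpa overlapped, with a difference of -0.048 (SE 0.061, adjusted p = 0.621).

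All 6 spindle assembly members fell, and their median of -0.95 was the lowest of the 10 roles. Nusap1, which bundles and stabilises spindle microtubules, had 8.53, 8.42 and 8.52 in CD69-activated arrays, 9.80, 9.91 and 10.07 in CD69-/- arrays, and 9.88, 9.93 and 9.83 in WT arrays. Its fall against WT, 2.62-fold, was the largest among the 58 members (log2 fold change -1.39, SE 0.063, adjusted p = 1.52e-07). Tpx2, which activates Aurora A and nucleates microtubules, fell by 1.14, and the spindle pole protein Hmmr by 1.12. Ckap2, a microtubule-associated protein, fell by 0.77 and Dlgap5, a spindle fibre protein, by 0.69. Aspm, which acts at the spindle poles, had 7.51, 7.38 and 7.58 in CD69-activated arrays, 7.91, 7.94 and 7.92 in CD69-/- arrays, and 8.05, 8.09 and 8.03 in WT arrays. This was the smallest change of the role, and the groups still did not overlap (log2 fold change -0.57, SE 0.048, adjusted p = 1.59e-05).

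The 4 cytokinesis members all fell, with a median of -0.69. Ect2, the exchange factor that activates RhoA at the cleavage furrow, had 8.45, 8.56 and 8.34 in CD69-activated arrays, 9.22, 9.21 and 9.28 in CD69-/- arrays, and 9.38, 9.35 and 9.18 in WT arrays. The CD69-activated arrays lay below the others by more than their own spread (log2 fold change -0.85, SE 0.063, adjusted p = 5.80e-06). Anln, which encodes the contractile ring protein anillin, had 6.94, 7.05 and 7.06 in CD69-activated arrays, 7.50, 7.44 and 7.54 in CD69-/- arrays, and 7.54, 7.44 and 7.57 in WT arrays. It too was lowest in CD69-activated arrays (log2 fold change -0.50, SE 0.049, adjusted p = 3.92e-05). Prc1, which bundles the microtubules of the central spindle, fell by 0.71, and Racgap1, the partner of Kif23 in centralspindlin, by 0.67.

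Of 7 members that condense or shape chromosomes, 6 fell, with a median of -0.82. Top2a, the topoisomerase that untangles DNA strands, had 8.99, 9.10 and 8.98 in CD69-activated arrays, 10.19, 10.19 and 10.23 in CD69-/- arrays, and 10.25, 10.27 and 10.18 in WT arrays. More than 1 log2 unit lay between the groups, and the fall was 2.31-fold (log2 fold change -1.21, SE 0.043, adjusted p = 3.48e-08). The condensin I subunits Ncapg, Ncaph and Ncapd2 fell by 0.95, 0.89 and 0.47, and Smc2, a core subunit of both condensins, by 0.56. Mki67, which encodes the proliferation marker Ki-67 that coats mitotic chromosomes, fell by 0.82. Smc4, the partner of Smc2 in the same core, had 12.12, 12.09 and 11.98 in CD69-activated arrays, 11.93, 11.96 and 11.98 in CD69-/- arrays, and 11.93, 12.00 and 11.98 in WT arrays. Its CD69-activated and WT arrays overlapped, while all CD69-activated arrays lay above all CD69-/- arrays, by little. The difference from WT of 0.093 did not pass (SE 0.042, adjusted p = 0.144), but without CD69-activated replicate 3 it was 0.13 and passed (adjusted p = 0.035). Kif14 and Top2a each had a second, dim probe set that was not used, at log2 levels of 4.30 to 4.31 for Kif14 and 4.20 to 4.75 for Top2a over the 9 arrays.

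**Figure D3:**
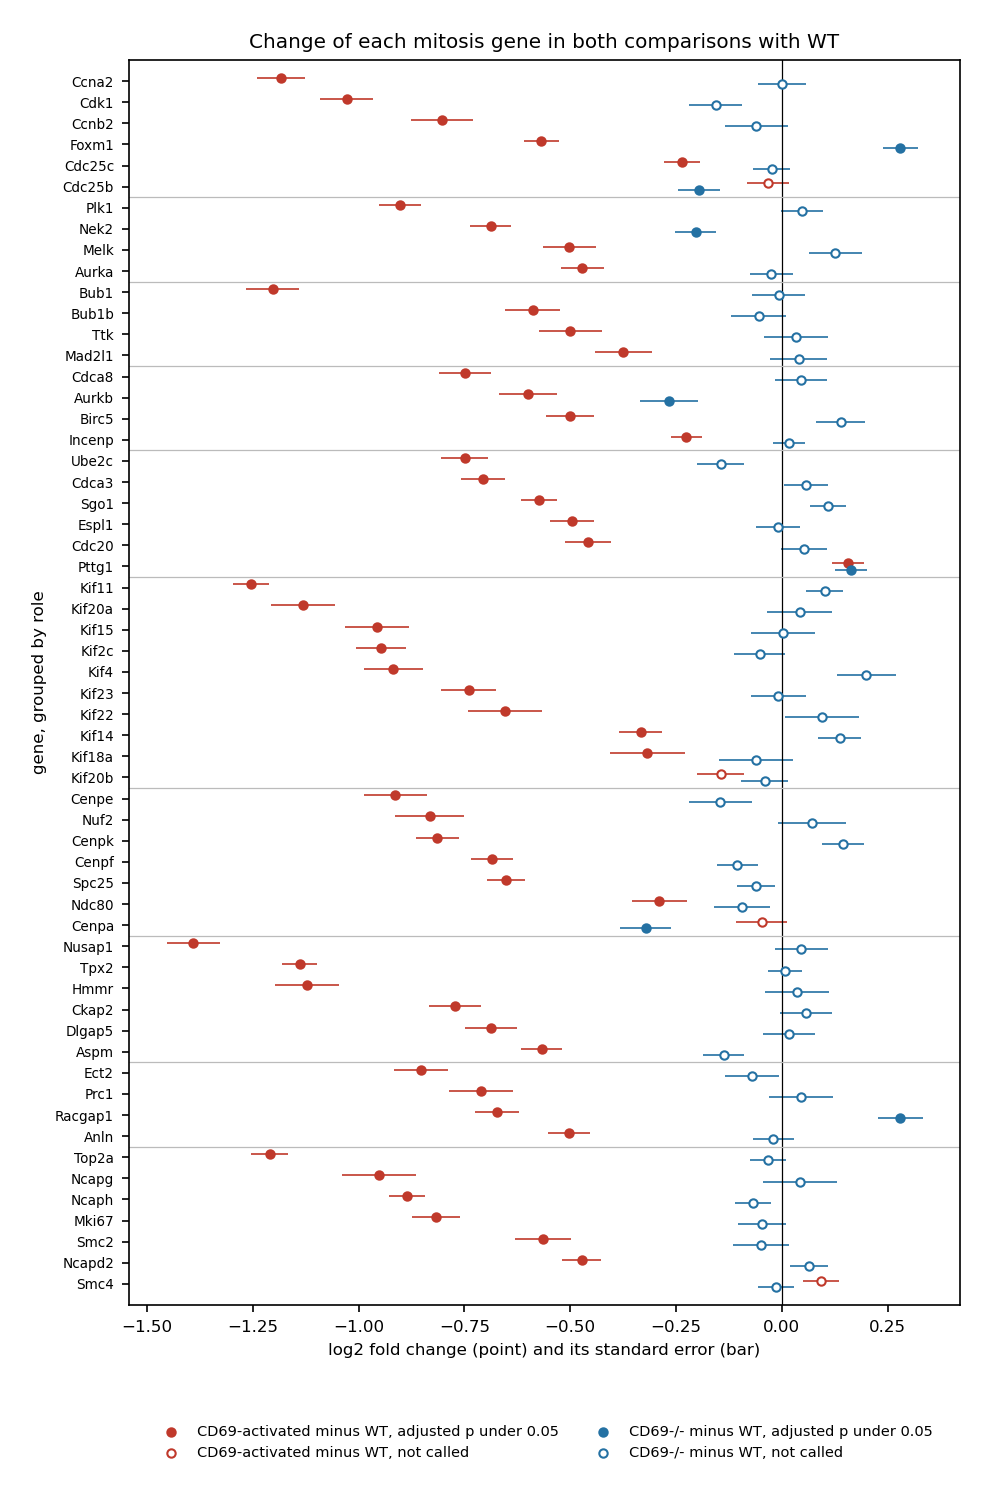
Log2 fold change (x axis) of each of the 58 mitosis genes in CD69-activated minus WT (red) and CD69-/- minus WT (blue), with its standard error, filled where the adjusted p was under 0.05 and open otherwise. Red points run from -1.39 for Nusap1 to 0.16 for Pttg1, and blue points from -0.32 for Cenpa to 0.28 for Racgap1.

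Falls were called among members with and without the CHR-type motif. Of the 35 searched members whose window holds TTTGAA, 33 fell, with a median log2 fold change of -0.71. Of the 14 without it, 12 fell, with a median of -0.63. Nusap1 and Bub1, among the members with the largest falls, had no TTTGAA in their windows, while Cenpa and Kif20b, which did not pass the test, had it near the start. The windows of Pttg1 and Cdc25b did not hold it.

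In CD69-/- cells most mitosis genes did not pass the test against WT. Of 58 members, 3 rose (Foxm1, Racgap1 and Pttg1) and 4 fell (Cenpa, Aurkb, Nek2 and Cdc25b), beside 8.36% of all genes that rose and 6.78% that fell. The median log2 fold change was 0.0018, beside -0.0091 for all genes, and 39 members lay within 0.1 of 0. No member changed by 1.5-fold or more in either direction. Of all 19938 genes, 149 (0.747%) were called at least 1.5-fold lower, 81 at least 1.5-fold higher and 18 (0.0903%) at least 2-fold lower. None among 58 members is near those shares. In 9 members all CD69-/- arrays lay below all WT arrays and in 9 above them, beside 15.9% and 17.3% of all genes. In all, 16 of 58 members had an unadjusted limma p under 0.05, a share similar to the 5336 of all 19938 genes. The lowest and highest bounds of the members' 95% intervals were -0.46 and 0.40. A member that did not pass is not thereby shown to be equal in the 2 groups. Both comparisons with WT share the 3 WT arrays.

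The 2 members that rose most were Racgap1 and Foxm1. Racgap1 had 8.52, 8.60 and 8.67 in CD69-activated arrays, 9.58, 9.45 and 9.61 in CD69-/- arrays, and 9.29, 9.29 and 9.22 in WT arrays. The 3 groups did not overlap, and CD69-/- cells stood above WT by 0.28 (SE 0.052, adjusted p = 0.00349). Foxm1 had 8.01, 7.89 and 7.97 in CD69-activated arrays, 8.79, 8.76 and 8.85 in CD69-/- arrays, and 8.55, 8.51 and 8.51 in WT arrays. It had the same order of groups, with CD69-/- cells 0.28 above WT (SE 0.042, adjusted p = 0.000772) and CD69-activated cells 0.57 below WT. Pttg1 was 0.16 above WT in CD69-/- cells (SE 0.038, adjusted p = 0.0141).

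Among the 4 members that fell in CD69-/- cells, Cenpa changed most. Its CD69-/- arrays lay below all arrays of the other groups, 0.32 below WT (SE 0.061, adjusted p = 0.0039). Aurkb had 9.74, 9.90 and 10.01 in CD69-activated arrays, 10.23, 10.18 and 10.24 in CD69-/- arrays, and 10.57, 10.49 and 10.38 in WT arrays. Its CD69-/- values lay between those of the other groups, 0.27 below WT (SE 0.068, adjusted p = 0.022). Nek2 had 7.95, 7.76 and 7.87 in CD69-activated arrays, 8.39, 8.33 and 8.31 in CD69-/- arrays, and 8.54, 8.56 and 8.54 in WT arrays. It also had its CD69-/- values in between, 0.20 below WT (SE 0.048, adjusted p = 0.0144), and Cdc25b was 0.20 below WT (SE 0.049, adjusted p = 0.0195). These calls were not equally firm over the 18 alternative analyses: Foxm1, Racgap1 and Cenpa were called in all 18, Pttg1 in 16, Nek2 in 14, Cdc25b in 13 and Aurkb in 12. With arrays centred on their medians 8 members rose and 1, Cenpa, fell. Leaving out WT replicate 2 or CD69-/- replicate 2 left 1 member lower, and leaving out WT replicate 1, CD69-/- replicate 1 or CD69-/- replicate 3 left 2. The rise of Pttg1 was lost without WT replicate 3 or CD69-/- replicate 3.

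**Figure D4:**
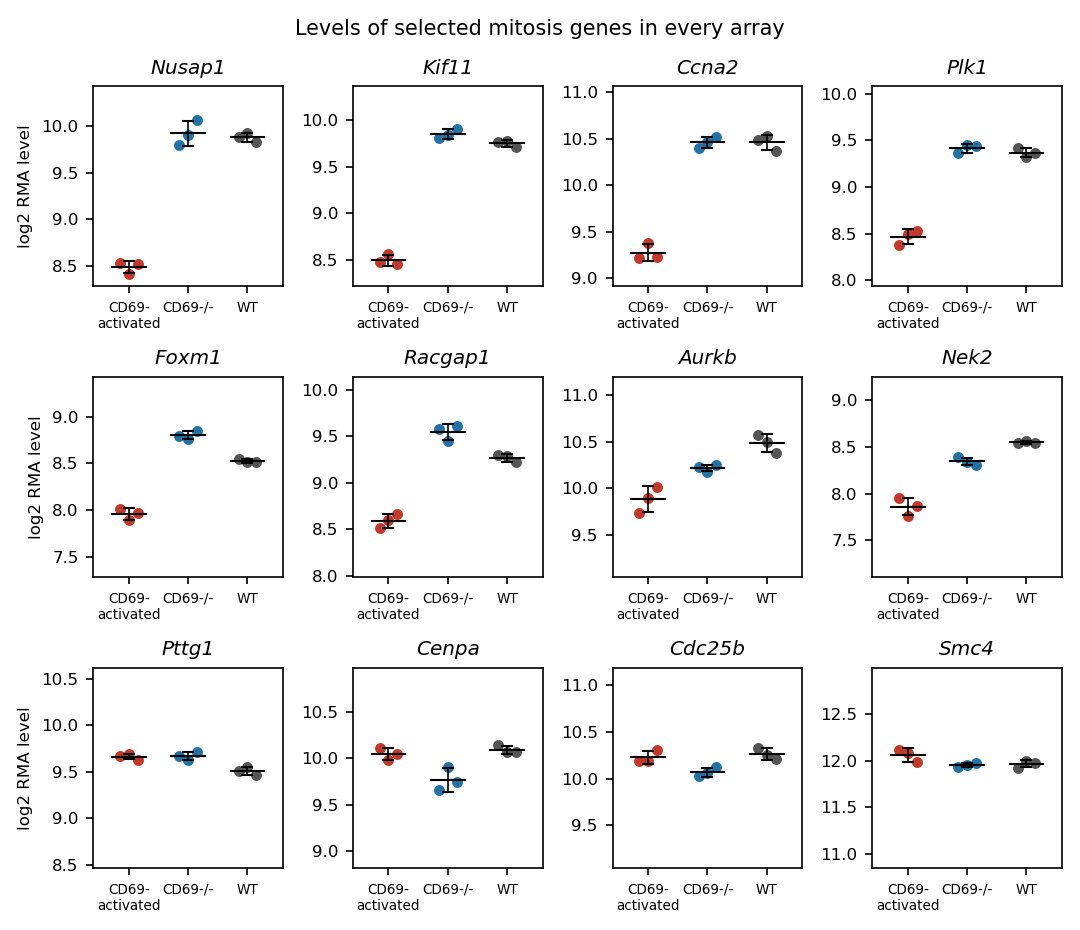
Log2 RMA level of 12 mitosis genes in each array (points, 3 per group), with the group mean and SD (lines), for CD69-activated, CD69-/- and WT. The panels share a span of log2 units but not an origin, and Nusap1, Kif11, Ccna2 and Plk1 are low in CD69-activated arrays alone, Foxm1 and Racgap1 are highest in CD69-/- arrays, and Cenpa and Cdc25b are lowest there.

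Set directly against CD69-/- cells, CD69-activated cells had 53 members lower and 2 higher, beside 21% of all genes lower and 21.6% higher. The median log2 fold change of the members was -0.72, beside 0.035 for all genes, and 35 members were at least 1.5-fold lower, beside 2.64% of all genes. Falls of at least 2-fold were called in 9 members, beside 0.547% of all genes. In 51 members all CD69-activated arrays lay below all CD69-/- arrays and in 3 above them, beside 24.2% and 27.3% of all genes. The 53 were the same 53 genes that were lower than in WT. Of these, the calls of Ndc80 and Kif18a against CD69-/- cells held in only 11 and 12 of the 18 alternatives, and their CD69-activated and CD69-/- arrays overlapped. This comparison shares the CD69-activated arrays with the one against WT, and 49 of the 53 genes were not called between CD69-/- and WT. Nusap1 was 2.71-fold and Kif11 2.56-fold lower in CD69-activated than in CD69-/- cells (log2 fold changes -1.44 and -1.36, adjusted p = 4.18e-08 and 4.24e-09). Racgap1 was lower by 0.95 and Foxm1 by 0.85 on the log2 scale, more than against WT. The 2 members that were higher were Cenpa, by 0.27 (adjusted p = 0.00406), and Cdc25b, by 0.16 (adjusted p = 0.02), and neither passed when arrays were centred on their medians. Over the 18 alternatives Cenpa was called in 17 and Cdc25b in 14. Kif20b, Pttg1 and Smc4 did not pass, and Pttg1 differed by -0.0075 (adjusted p = 0.889).

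Related gene lists were not alike in CD69-activated minus WT, where 13.7% of all genes fell and 10.1% rose. Of 58 further mitosis genes outside the set, 45 fell and 2 rose, with a median of -0.31, led by the kinetochore subunit Ska3 (-1.04), the spindle protein Ckap2l (-0.99) and Spag5, or astrin (-0.98). Of 39 replication and S phase genes, 35 fell and none rose, with a median of -0.49, led by Rrm2, a subunit of ribonucleotide reductase (-1.35), Dtl, a substrate receptor of a ubiquitin ligase (-1.27), and Uhrf1, which maintains DNA methylation (-1.11). Of 15 core subunits of the APC/C, whose activator Cdc20 and enzyme Ube2c fell, 3 fell and none rose, with a median of -0.072: Anapc15 (-0.57), Anapc13 (-0.44) and Cdc26 (-0.17). After median centring of the arrays 10 of these 15 fell. Of 12 cohesin genes 4 fell and 2 rose, with a median of 0.033, led by the acetyltransferase Esco2 (-0.94), the core subunit Smc1a (-0.26) and the loader Nipbl, which rose by 0.25.

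Kinesin genes listed outside mitosis, called transport kinesins here, did not follow the mitotic kinesins. Of 22 such genes 1 fell and 5 rose, with a median of 0.035, and the largest changes were those of Kif13b (0.26), Kif26a (0.19) and Kif16b (0.16), of which all 3 passed. With arrays centred on their medians 3 fell and 1 rose. Of 12 subunits of the DREAM and MuvB complexes, which bind the CHR and control these promoters, 5 fell and none rose, with a median of -0.096, led by the E2F partner Tfdp1 (-0.78), Mybl2, or B-MYB (-0.42), and E2f5 (-0.21). Of 15 spindle tubulins and centrosome genes 4 fell and 1 rose, with a median of -0.029, led by the tubulin Tuba1a (-0.47), gamma-tubulin Tubg1 (-0.36) and the augmin subunit Haus1 (-0.25). Under the same centring 7 of these 15 fell and none rose. In CD69-/- minus WT, where 8.36% of all genes rose and 6.78% fell, 5 of 58 further mitosis genes rose and 1 fell. Of 39 replication genes 6 rose and none fell, with a median of 0.097, and 20 had all CD69-/- arrays above all WT arrays, beside 17.3% of all genes. In the remaining lists 3 of 22 transport kinesins, 1 of 12 DREAM or MuvB subunits and 2 of 15 tubulin or centrosome genes rose, and no gene of the 5 lists fell. Median centring gave 9 rises among the further mitosis genes and 10 among the replication genes.

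**Figure D5:**
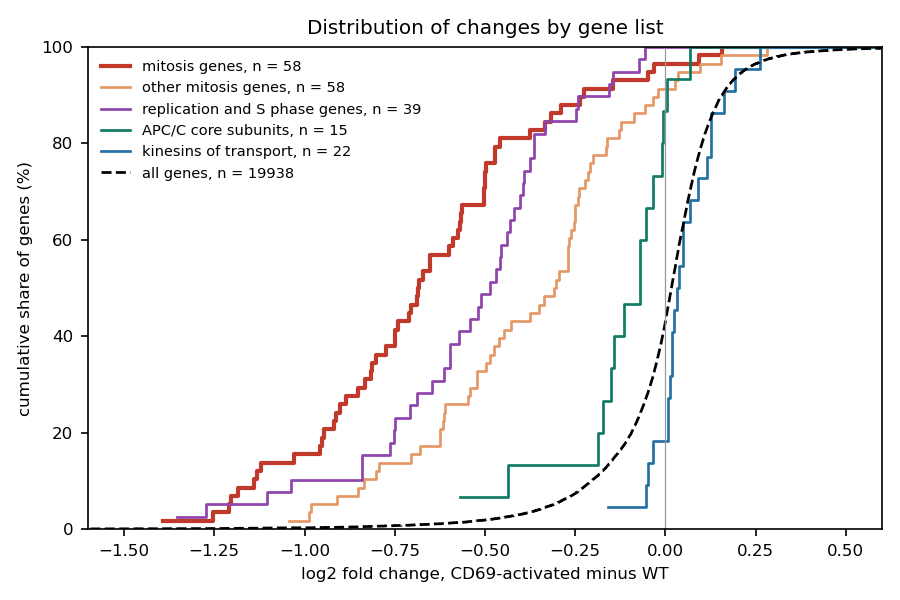
Cumulative share of genes (%) by log2 fold change in CD69-activated minus WT, for the 58 mitosis genes, 4 related lists and all 19938 genes. The curve of the mitosis genes lies furthest to the left over most of its range, with a median of -0.69, beside -0.49 for replication genes, -0.31 for other mitosis genes, -0.072 for APC/C core subunits, 0.035 for transport kinesins and 0.017 for all genes.

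Markers of the cultured cells were read in the same arrays. Cd4 had mean log2 levels of 12.06 in CD69-activated, 12.35 in CD69-/- and 11.98 in WT arrays. RMA values carry no detection call, and no marker was at 0. In WT arrays the Y-linked probe sets averaged 4.33 (Eif2s3y), 5.06 (Uty) and 5.16 (Kdm5d). A difference in level between probe sets is not read here as a difference in RNA amount. The NK cell marker Klrb1c averaged 5.15 in CD69-activated, 5.07 in CD69-/- and 5.49 in WT arrays. Klrb1c does not stand for its list of 7 markers, of which 3 rose and 4 fell in CD69-/- minus WT. The linear levels of the list summed to 4329 to 4653 in CD69-activated, 9756 to 10212 in CD69-/- and 8121 to 8234 in WT arrays. The cells were enriched for CD4 T cells. The B cell gene Cd79a averaged 13.10 in CD69-activated, 12.75 in CD69-/- and 13.17 in WT arrays, and the CD8 T cell gene Cd8b1 averaged 12.15 in CD69-activated, 12.83 in CD69-/- and 12.40 in WT arrays. Both WT averages were above 11.97, the level at the 97.4th percentile of all genes in WT arrays. Which cells the mitosis transcripts came from was not tested.

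Between CD69-activated and WT cells, where 13.7% of all genes fell and 10.1% rose, the marker lists moved as follows. Of 11 CD4 T cell markers 3 fell and none rose, and their summed linear level was 38453 to 39171 in CD69-activated and 38574 to 40838 in WT arrays. Of 11 B cell markers 2 fell and 2 rose, with sums of 61889 to 63876 in CD69-activated and 63382 to 66630 in WT arrays. Both CD8 T cell markers fell, with sums of 5785 to 6626 in CD69-activated and 7805 to 7934 in WT arrays, as did 6 of 7 NK cell markers, with sums of 4329 to 4653 in CD69-activated and 8121 to 8234 in WT arrays. Of 11 monocyte, macrophage and dendritic cell markers 4 rose and 3 fell, with sums of 4808 to 5021 in CD69-activated and 4192 to 4298 in WT arrays. Falls were called in 4 of 7 plasma cell markers, with sums of 7380 to 7732 in CD69-activated and 8305 to 8518 in WT arrays. Of 9 neutrophil and mast cell markers 4 fell, with sums of 1582 to 1657 in CD69-activated and 2262 to 2384 in WT arrays. Of 8 erythroid markers 3 fell and 1 rose, with sums of 2109 to 2180 in CD69-activated and 2895 to 2934 in WT arrays, and 3 of 4 platelet markers fell, with sums of 795.02 to 835.5 in CD69-activated and 976.58 to 1049 in WT arrays. With arrays centred on their medians 5 CD4 T cell and 5 B cell markers fell, and 1 B cell marker rose. The CD8 T cell, NK cell, plasma cell, neutrophil and mast cell, erythroid and platelet sums were thus lower in CD69-activated than in WT arrays without overlap, as were most of the mitosis genes, while the CD4 and B cell sums overlapped. A linear sum follows the brightest genes of its list, so the NK cell sum holds little of Klrb1c. Whether the listed genes came only from the cells they name was not tested, and a sum is not a count of cells. The part of any such cells in the fall of the mitosis genes was not tested.

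In CD69-/- minus WT, where 8.36% of all genes rose and 6.78% fell, the same lists moved as follows. Of 11 CD4 T cell markers 10 rose against WT, with sums of 52955 to 53910, and all 11 B cell markers fell, with sums of 47170 to 49998. Both CD8 markers rose, with sums of 10883 to 11269, as did 3 of 7 NK cell markers while 4 fell, with sums of 9756 to 10212, and 10 of 11 monocyte, macrophage and dendritic cell markers fell, with sums of 2357 to 2593. Plasma cell markers gave 2 rises and 3 falls among 7, with sums of 8109 to 8197. Neutrophil and mast cell markers gave 1 rise and 2 falls among 9, with sums of 2153 to 2217. Platelet markers fell in 3 of 4, with sums of 727.17 to 806.12. Erythroid sums, at 2044 to 2224, were near those of CD69-activated arrays. The CD8 and NK cell sums lay above those of WT here and below them in CD69-activated arrays. The part of such shifts in the levels of the mitosis genes was not tested.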

How the data were processed

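The deposited table holds log2 expression values for 35556 probe sets on 9 one-colour arrays, which the authors made with RMA, per the submitters' processing notes, which also name oligo and R 2.12.1. The sources used here give no settings for RMA, which compresses large changes. Precision is limited by the number of arrays. The platform annotation gave 1 gene symbol for 21789 probe sets, several for 1621 and none for 12146. The brightest probe set stood for each of 19938 genes, of which 998 had more than 1.

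Values were fitted with limma 3.58.1 in R 4.3.3 (lmFit on 3 group means over all 9 arrays, eBayes, 6 residual and 4.78 prior degrees of freedom), with two-sided tests and Benjamini-Hochberg adjustment over all genes. The fit was tested on simulated data. The members and lists were chosen with earlier results of these data known. Array values are given for the members with the largest and smallest change of each role and up to 6 called in CD69-/- minus WT, and the 3 largest called changes of each list are named. Cdk1 was added after its values were seen. Same-numbered arrays of different groups correlated at -0.242 to 0.142 in their deviations from group means. With 3 arrays a group, this neither shows nor excludes a pairing of the samples. The RefSeq promoter windows (GRCm38.p6) were searched for exact letters on both strands. Python 3.11.15 and matplotlib 3.10.9 drew the figures.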

Additional observations from a re-analysis of the deposited data

How the results depend on the processing

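The 3 comparisons were recomputed under 9 other settings (median centring of arrays, the same with medians of the genes tested, cyclic loess, no dim genes, mean of probe sets, only the 6 arrays compared, array weights, replicate block, a robust prior with an intensity trend) and without each of the 9 arrays. Centring on the genes' medians was chosen after seeing the data. No called change of a member reversed. Over the 9 settings 53 to 54 members were lower in CD69-activated than in WT cells, and 51 to 55 lower than in CD69-/- cells.

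Centring arrays on their medians moved many of the counts. All genes then had 764 higher and 4741 lower in CD69-activated minus WT (2015 and 2727 as deposited), 886 lower in CD69-/- minus WT (1351 as deposited), and 1354 higher and 7990 lower in CD69-activated minus CD69-/- (4314 and 4187 as deposited). The median of all genes in the last comparison moved to -0.092 with centring, against 0.035 as deposited, so changes there are relative to that shift. The members' median became -0.77 against WT and -0.85 against CD69-/- cells. Members higher numbered 0 in CD69-activated minus WT, 8 in CD69-/- minus WT and 0 in CD69-activated minus CD69-/-, and 1 was lower in CD69-/- minus WT. Centring on the genes' medians gave 2555 genes and 8 members higher in CD69-/- minus WT.

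Leaving out each array gave 52 to 54 members lower and 1 to 2 higher in CD69-activated minus WT, 1 to 5 lower and 2 to 4 higher in CD69-/- minus WT, and 51 to 53 lower and 1 to 2 higher in CD69-activated minus CD69-/-. All genes higher in CD69-/- minus WT ranged over 1092 (without WT replicate 3) to 1823. The second member higher than in WT came without CD69-activated replicate 3, and 1 member was higher than in CD69-/- cells without CD69-/- replicate 1 or 2. Among named list genes the calls of Cdc26, Kif16b and E2f5 were each lost in some alternatives, and that of Kif26a under median centring.

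The labels do not tie the replicate numbers to a shared mouse or day. The replicate block left 53 members lower and 1 higher in CD69-activated minus WT, and called 1818 genes higher and 2527 lower. Of 18 pairings of an array with another group, 3 had their best correlation, in deviations from group means, with their own number.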

Other observations

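The related lists were searched for the CHR-type motif in the same RefSeq windows. TTTGAA lay within 50 bases of the start in 18 of 52 windows of the further mitosis genes (34.6%), against 60.4% of the windows of the 58 genes and 3.78% of all windows. The replication and S phase genes, of which 35 of 39 fell in CD69-activated minus WT, had it there in 3 of 38 windows (7.89%), and CCAAT anywhere in 60.5% of windows. The core subunits of the APC/C had it there in 0 of 17 windows and the transport kinesins in 2 of 20 (10%). These shares are descriptions of letters in the windows.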
